A study of Mus musculus with 18 samples.

Results

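The insulin-like growth factor (IGF) genes were described in mouse cells given the zinc finger factors Ikzf1 (Ikaros) and Ikzf4 (Eos). The set held 10 genes picked by symbol: the ligands Igf1 and Igf2, the receptors Igf1r and Igf2r, and the binding proteins Igfbp2, Igfbp3, Igfbp4, Igfbp5, Igfbp6 and Igfbp7. All 10 were present among the 35734 genes of the authors' deposited table for fibroblasts. That comparison used mouse embryonic fibroblasts of the R26-M2rtTA line on C57BL/6, which carries the doxycycline-dependent activator. Both groups were infected with doxycycline-inducible lentiviral vectors for the POU factor Brn2 and the zinc finger factor Myt1l, and 1 of them also with vectors for Ikzf1 and Ikzf4. RNA and open chromatin were sampled 48 h after doxycycline, with 3 libraries per group and assay. The labels do not say whether these came from separate cultures, so p-values measure the spread between libraries, which may be technical. The controls of this comparison thus also carried Brn2 and Myt1l, and no uninfected fibroblasts were compared. The series had 18 samples in 10 groups. Chromatin accessibility was also read from a pair of retinal single-nucleus multiome libraries, 1 control with mCherry and 1 with Ikzf1/4. The control was labelled as Muller glia of the line GLAST-CRE ERT2 with RosaYFP on C57BL/6, in which tamoxifen switches on Cre in cells with an active glutamate transporter promoter. For the Ikzf1/4 multiome library the labels name no tissue apart from the title, and the series' design text gives reprogrammed Muller glia for this assay. Both multiome libraries were described with tamoxifen at 14 days but have 48 h in the run names of their headers, and which of these times holds is unsettled.

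IGF1 and IGF2 are secreted peptides that resemble insulin. They signal through the tyrosine kinase IGF1R to insulin receptor substrates, PI3 kinase, AKT and mTOR, and this signal holds FOXO factors out of the nucleus. IGF2R, which also sorts lysosomal enzymes, binds IGF2 and removes it without a kinase of its own. The binding proteins hold the ligands in the extracellular space and set how much reaches the receptors. Proteases such as the pappalysin PAPPA release the ligands by cleaving the binding proteins. Embryonic fibroblasts are known to secrete IGF ligands and binding proteins. Igf2 and Igf2r are imprinted in the mouse, with Igf2 read from the paternal and Igf2r from the maternal copy.

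The 4 promoters below were chosen because Igfbp4 was the member called in the RNA comparison, Igf2r and Igf1r had the most accessible starts, and Igf1 had the gene window with the lowest ratio between the retinal libraries. They are RefSeq sequences on GRCm38.p6, written 5′ to 3′ on the gene's strand from 250 bases before the start to 50 after it. The Igfbp4 and Igf1 starts used here lie inside the gene spans given below, so their windows do not cover the upstream ends of those spans. Capitals mark TGGGAA, the core bound by Ikaros family proteins, and TATAAA, each searched on both strands, so a match on the opposite strand reads TTCCCA.
Igfbp4, chr11:99040994-99041293, plus strand: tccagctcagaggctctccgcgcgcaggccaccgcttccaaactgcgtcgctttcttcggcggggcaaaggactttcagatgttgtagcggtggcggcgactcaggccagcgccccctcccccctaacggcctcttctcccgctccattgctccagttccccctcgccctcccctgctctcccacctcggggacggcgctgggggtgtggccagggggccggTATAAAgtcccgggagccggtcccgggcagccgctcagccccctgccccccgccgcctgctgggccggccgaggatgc
Igf1r, chr7:67952007-67952306, plus strand: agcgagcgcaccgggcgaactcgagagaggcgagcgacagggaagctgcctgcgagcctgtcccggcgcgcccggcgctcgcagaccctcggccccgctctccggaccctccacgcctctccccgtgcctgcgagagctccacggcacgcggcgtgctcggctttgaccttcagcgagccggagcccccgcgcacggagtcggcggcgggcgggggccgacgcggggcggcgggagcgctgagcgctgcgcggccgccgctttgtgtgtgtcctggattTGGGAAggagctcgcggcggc
Igf2r, chr17:12769657-12769956, minus strand: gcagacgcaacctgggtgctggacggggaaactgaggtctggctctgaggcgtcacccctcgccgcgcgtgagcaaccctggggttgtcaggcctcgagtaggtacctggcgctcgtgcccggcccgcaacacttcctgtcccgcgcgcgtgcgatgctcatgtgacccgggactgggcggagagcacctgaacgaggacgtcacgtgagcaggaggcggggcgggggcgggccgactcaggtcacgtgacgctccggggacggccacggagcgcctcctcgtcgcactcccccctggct
Igf1, chr10:87860861-87861160, plus strand: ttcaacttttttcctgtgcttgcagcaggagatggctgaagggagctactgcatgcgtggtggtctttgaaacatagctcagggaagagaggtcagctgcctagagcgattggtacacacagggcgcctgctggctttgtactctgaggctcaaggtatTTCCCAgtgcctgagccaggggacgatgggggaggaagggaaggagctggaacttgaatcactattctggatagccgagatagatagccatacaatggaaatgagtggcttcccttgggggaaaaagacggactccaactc
The Igfbp4 window held TATAAA 28 bases before its start. In the Igf1r window TGGGAA lay 29 bases after the start, and in the Igf1 window its reverse complement lay 91 bases before it. The Igf2r window held neither string. It held GGGCGG, a GC box bound by SP family factors, at 3 places, the closest beginning 25 bases before the start. GC content was 76.0% for Igf1r, 71.3% for Igfbp4 and 70.7% for Igf2r, against a median of 52.7% over all 32851 promoters of the table, and 52.3% for Igf1.

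On GRCm38.p6 the ligand genes lie apart, Igf1 (ENSMUSG00000020053) at chr10:87858265-87937047 and Igf2 (ENSMUSG00000048583) at chr7:142650768-142666816. The receptor genes are Igf1r (ENSMUSG00000005533) at chr7:67952257-68233668, on the same chromosome as Igf2, and Igf2r (ENSMUSG00000023830) at chr17:12682406-12769706. Of the binding protein genes, Igfbp2 (ENSMUSG00000039323) at chr1:72824480-72852474 and Igfbp5 (ENSMUSG00000026185) at chr1:72858065-72874865 share chromosome 1, and Igfbp3 (ENSMUSG00000020427) at chr11:7206086-7215498 and Igfbp4 (ENSMUSG00000017493) at chr11:99040005-99052655 share chromosome 11. The remaining ones are Igfbp6 (ENSMUSG00000023046) at chr15:102144186-102149512 and Igfbp7 (ENSMUSG00000036256) at chr5:77349240-77408045.

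The table listed 14 starts for the 10 members, 4 of them for Igf2 and 2 for Igfbp2. TGGGAA was found in 4 of these 14 windows (28.6%), namely those of Igf1 and Igf1r and 2 of Igf2, against 25.6% of all promoters. TATAAA was found in 2 (14.3%), those of Igfbp4 and Igfbp6, against 13.6%. GGGCGG was found in 6 (42.9%) against 35.7%. CCAAT was found in 3 of the 14 against 37.4% of all promoters, and TGAGTCA, the AP-1 motif, in 1 against 5.20%. A match of letters is a description, not a binding site.

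The fibroblast RNA libraries held 34966344 to 44270426 estimated reads. In the authors' deposited table, Ikzf4 and Ikzf1 were higher in the group that received them by 8.54 (SE 0.15) and 7.76 (SE 0.17) on the log2 scale. Pou3f2, the gene for Brn2, differed by -0.05 (SE 0.08, DESeq2 adjusted p = 0.689), while Myt1l was higher by 0.50 (SE 0.17, DESeq2 adjusted p = 0.0157) by the authors' deposited table. All 10 fibroblast markers were present, and 7 of the 10 were called lower with Ikzf1 and Ikzf4, among them Dcn at -1.77 (SE 0.08) by the authors' deposited table. For these marker counts, the share over all 16757 tested genes was 15.3% called higher and 15.4% called lower. Of the other cell types listed, 5 macrophage markers were present at mean normalised counts of 326 to 2580, with none called, in the authors' deposited table. There endothelial markers had means of 6.57 to 132 with none of 5 called. Of the 3 epithelial markers with an adjusted p, Epcam was called higher, at a mean of 40.97 in the authors' deposited table. Neuronal Tubb3 was called lower by 0.42 on the log2 scale (SE 0.10) by the authors' deposited table, the only call among 4 tested neuronal markers. Of 5 hepatocyte markers, Gc alone was tested and was lower, at -2.88 (SE 0.13), while Ttr was listed at 0 and the means of Alb, Afp and Apoa1 lay between 1.13 and 3.05 in the authors' deposited table. None of the 2 tested skeletal muscle markers was called.

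Only 1 of the 10 IGF members, Igfbp4, changed in fibroblasts at an adjusted p under 0.05 by the authors' deposited table, and it fell. That share of 10% stands beside 30.6% of all 16757 genes with an adjusted p, 15.3% called higher and 15.4% called lower. Among the members 6 estimates were positive and 4 negative, with a median log2 fold change of 0.07 against -0.0004 over all tested genes. The median size of the change without regard to sign was 0.12, against 0.15 over all tested genes. An interval of 1.96 SE on both sides lay within a 1.3-fold change for 7 members and within a 1.5-fold change for 9. The exception at 1.5-fold was Igfbp3. These bounds are those of the deposited values, whose standard errors show a sign of shrinkage. The sources used here do not pair the transcripts of the per-library files with genes, so the members' values in single libraries are not given, and the means below are over both groups as the authors scaled them. Bulk RNA cannot tell fewer cells of a type from less RNA per cell.

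**Figure D1:**
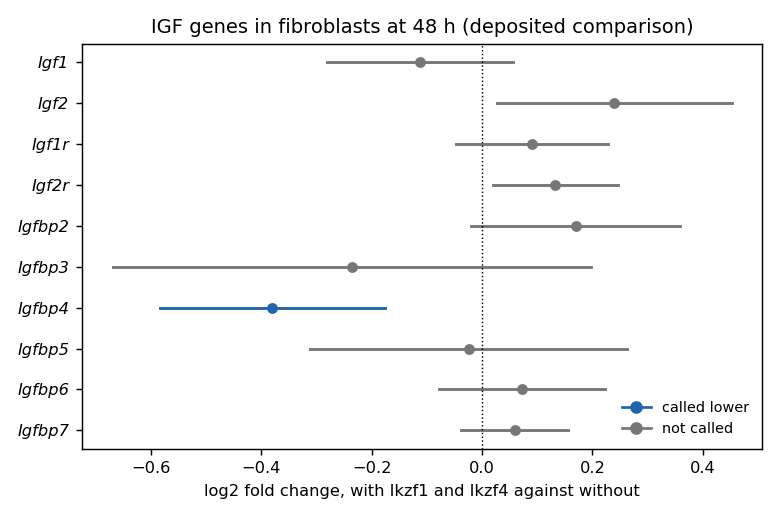
Log2 fold change of the 10 IGF members in fibroblasts at 48 h, with Ikzf1 and Ikzf4 against without (x axis, log2), from the authors' deposited table. Points are estimates and bars are 1.96 SE on both sides. Igfbp4, in blue, was the only member called, at -0.38.

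Of the ligands, Igf1, the main mediator of growth hormone action, had a log2 fold change of -0.11 (SE 0.09, DESeq2 adjusted p = 0.352) at a mean normalised count of 1681 in the authors' deposited table. Its interval ran from -17.7% to 3.91%. Igf1 is also a product of macrophages, whose 5 markers had 2 positive and 3 negative log2 fold changes, from -0.27 for Cx3cr1 to 0.15 for Adgre1, with none called and 1 (Ptprc, at -0.20) at an unadjusted DESeq2 p of 0.0399 in the authors' deposited table. The part of such cells in the Igf1 level was not tested. Igf2, the fetal growth factor, had a log2 fold change of 0.24 (SE 0.11) at a mean of 1470 in the authors' deposited table. Its unadjusted p of 0.0276 became 0.0805 after the DESeq2 adjustment, so it did not pass, and its interval reached from 1.85% to 36.8% higher. Neither ligand passed the test, and their estimates pointed in opposite directions, a difference that was not tested.

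Igf1r, the signalling receptor, had a log2 fold change of 0.09 (SE 0.07, DESeq2 adjusted p = 0.367) at a mean normalised count of 5921 in the authors' deposited table. Igf2r, the clearing receptor, had 0.13 (SE 0.06, unadjusted p = 0.0213, DESeq2 adjusted p = 0.0653) at a mean of 15458 in the authors' deposited table. Both intervals lay within a 1.3-fold change. The long noncoding RNA Airn is transcribed from within Igf2r on the other strand. No source used here gives the strand setting of the counting. Airn reads over Igf2r exons, if any, therefore cannot be told apart from Igf2r reads. Insr, the insulin receptor, which can pair with IGF1R and bind IGF2, had a log2 fold change of 0.04 (SE 0.06, DESeq2 adjusted p = 0.712) by the authors' deposited table.

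Of the 6 binding proteins, Igfbp4, which mostly restrains IGF action and is cleaved by PAPPA, fell by 0.38 on the log2 scale (SE 0.10, DESeq2 adjusted p = 0.0015) by the authors' deposited table. This was a change of -23.2%, with an interval from -33.3% to -11.5%, at a mean normalised count of 689. The call was lost with Bonferroni adjustment of the DESeq2 p-values over all genes with a p (adjusted p = 1), under which 7.01% of them were called, and with an absolute log2 fold change over 1 required. The size of the Igfbp4 change was above that of 82.8% of all tested genes. Of the 10 fibroblast markers 7 were also called lower, against 15.4% of all tested genes, with a median over the 10 of -0.46. Pdgfra (0.03), Twist1 (-0.05) and Lum (-0.23) did not pass the test in the authors' deposited table. The part of this marker shift in the Igfbp4 value was not tested. Igfbp3, the main carrier of IGFs in serum, had -0.24 with the widest error of the set (SE 0.22, DESeq2 adjusted p = 0.473) by the authors' deposited table. The standard error of Igfbp3 was above that of 93.2% of tested genes, and its interval ran from -37.1% to 14.7%. A change of the size seen for Igfbp4 lay inside that interval.

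None of the other 4 binding proteins was called. Igfbp2, abundant in fetal tissue, had a log2 fold change of 0.17 (SE 0.10, DESeq2 adjusted p = 0.185) by the authors' deposited table. Igfbp5, which binds the extracellular matrix, had -0.02 (SE 0.15, DESeq2 adjusted p = 0.93) by the authors' deposited table. Igfbp6, which prefers IGF2 over IGF1, had 0.07 (SE 0.08, DESeq2 adjusted p = 0.536), and Igfbp7, a matrix protein with low affinity for IGFs, had 0.06 (SE 0.05, DESeq2 adjusted p = 0.411), both in the authors' deposited table. The means of these 4 genes ran from 623 for Igfbp5 to 20344 for Igfbp7. Igfbp7 also had the lowest standard error of the set, above that of only 5.28% of tested genes.

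Several binding protein genes lie beside each other or beside unrelated active genes. Igfbp2 and Igfbp5 are neighbours on chromosome 1, with 5590 bp between them on GRCm38.p6, and neither was called. Igfbp3 lies 3539 bp from Igfbp1 on chromosome 11, and Igfbp1 was listed at 0. Top2a, the nearest protein-coding gene on the low side of Igfbp4 at 15805 bp, had a log2 fold change of 0.03 (SE 0.09, DESeq2 adjusted p = 0.842) by the authors' deposited table. Ins2, next to Igf2, was listed at 0. Tns4, on the other side of Igfbp4 at 13022 bp, had -0.11 (SE 0.16, DESeq2 adjusted p = 0.675) by the authors' deposited table. Of the 11 tested neighbours that are not members, 2 were called, both higher (18.2%, against 30.6% of all tested genes). Pmch, 154024 bp from Igf1, had a log2 fold change of 0.55 (SE 0.18, DESeq2 adjusted p = 0.0130) by the authors' deposited table. Adgrl3, 3611039 bp from Igfbp7, had 0.44 (SE 0.06, DESeq2 adjusted p = 1.45e-10) by the authors' deposited table.

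The rest of the pathway was taken from a list of 39 genes. Of these, 37 were in the authors' deposited table, 4 were listed at 0 (Ins1, Ins2, Igfbp1 and Slc22a2) and 29 had an adjusted p. Of the 29, 6 rose and 5 fell (37.9% called, against 30.6% of all tested genes), and their median log2 fold change was 0.005. These counts include Pdk1, which fell but, as given below, is not the PI3 kinase effector meant by the list. The 2 genes not in the table were Airn and H19, the noncoding RNA beside Igf2.

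Among the 13 adaptors and kinases, 3 rose and 3 fell, Pdk1 included (46.2% called, against 30.6% of all tested genes). Grb14, an adaptor that inhibits insulin family receptors, fell by 0.70 on the log2 scale (SE 0.08, DESeq2 adjusted p = 1.34e-18), and its relative Grb10 fell by 0.17 (SE 0.07, DESeq2 adjusted p = 0.0375) by the authors' deposited table. With Benjamini-Hochberg adjustment of the DESeq2 p-values over all genes with a p, Grb10 had an adjusted p of 0.0552 and lost its call. This left 10 of the list called, under a rule that called 19.3% of all 24712 genes with a p. Pik3r1, the regulatory subunit of PI3 kinase, rose by 0.50 (SE 0.06, DESeq2 adjusted p = 5.84e-17) by the authors' deposited table. The docking proteins Irs2 and Irs4 rose by 0.29 (SE 0.08) and 1.75 (SE 0.22), the latter at a mean normalised count of 42.2, in the authors' deposited table. Irs1, the other docking protein listed, had -0.001 (SE 0.07, DESeq2 adjusted p = 0.993) by that table. Pdk1 fell by 0.40 (SE 0.11) by the authors' deposited table; this symbol is pyruvate dehydrogenase kinase 1, not the PI3 kinase effector, which is Pdpk1. Pdpk1 itself had 0.13 (SE 0.06, DESeq2 adjusted p = 0.0825), and none of Akt1, Akt2 and Mtor was called in the authors' deposited table.

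Of the 3 FOXO factors, Foxo3 rose by 0.48 (SE 0.05, DESeq2 adjusted p = 2.92e-23) and Foxo4 by 0.35 (SE 0.08, DESeq2 adjusted p = 2.91e-05), while Foxo1 had 0.05 (SE 0.08, DESeq2 adjusted p = 0.668) by the authors' deposited table. These are RNA levels of factors whose activity is set by location in the cell. Of the 6 proteases and their inhibitors, Stc1, which inhibits pappalysins, rose by 0.42 (SE 0.14, DESeq2 adjusted p = 0.00794), and Pappa, the protease that cleaves IGFBP4, had 0.005 (SE 0.09, DESeq2 adjusted p = 0.978) by the authors' deposited table. Igf2bp3, a protein that binds Igf2 mRNA, fell by 0.16 (SE 0.06, DESeq2 adjusted p = 0.0213), and the growth hormone receptor Ghr fell by 0.24 (SE 0.06, DESeq2 adjusted p = 0.00111) by the authors' deposited table. The other mRNA binding proteins, Igf2bp1 and Igf2bp2, and the growth hormone effectors Stat5a and Stat5b were not called.

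**Figure D2:**
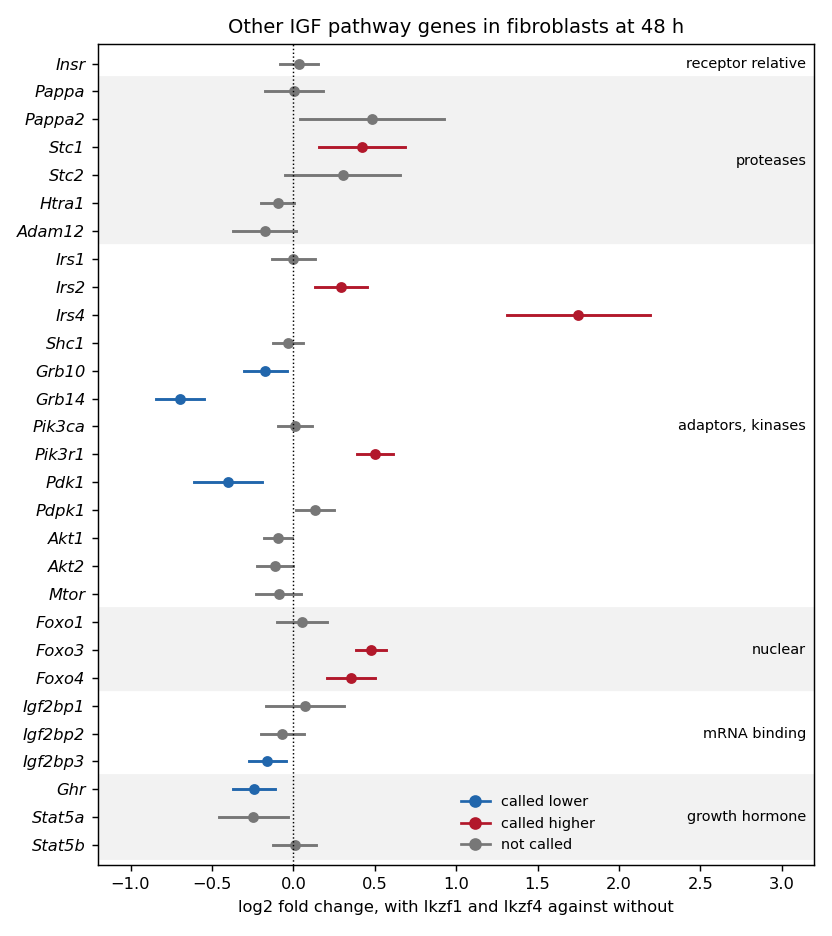
Log2 fold change (x axis, log2) of the 29 genes of the IGF pathway list tested in the authors' deposited table, ordered by role on the y axis, with bars of 1.96 SE on both sides. Pdk1, among those called lower, is a pyruvate dehydrogenase kinase and not the PI3 kinase effector. The 6 genes called higher are in red and the 5 called lower in blue; Irs4 lies farthest to the right at 1.75.

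The 6 fibroblast ATAC-seq libraries were deposited as peak lists of 131297 to 207243 peaks. The last peak of chromosome 1 ended at 197135075 to 197160924, beyond the last multiome fragment on the mm10 chromosome at 195371609, so these lists are not on mm10. Gene coordinates of their build were not at hand, and the fibroblast peaks at the IGF loci were not analysed here. Accessibility at the loci was read in the retinal multiome libraries instead, which are on mm10.

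The control multiome library held 52119123 fragments, with 1891 barcodes kept as cells at a median of 6260 fragments. The Ikzf1/4 library held 29358834, with 700 cells at a median of 11016. They shared 3 cell barcodes. Fragments in cells were 26.6% and 32.6% of all, so levels are given as CPM, the count per 1000000 fragments in cells. With 1 library per group there is no replicate check and no test. Each interval below is an exact 95% interval that covers counting error only, and a difference is one between these libraries, not between conditions. The share of a cell type and accessibility per cell cannot be told apart in these sums.

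The IGF receptors had the most accessible starts. In the control library the Igf2r promoter window held 272 fragments, or 19.6 CPM (17.4 to 22.1), and by the mean of both libraries it lay above 85.9% of all promoters. In the Ikzf1/4 library it held 212, or 22.1 CPM (19.3 to 25.3), a ratio of 1.13 (0.94 to 1.35). The Igf1r window held 113 and 115 fragments, or 8.16 CPM (6.72 to 9.81) and 12.01 CPM (9.92 to 14.4), a ratio of 1.47 (1.13 to 1.93). The Igf1r ratio was 1.51 (1.19 to 1.92) over all barcodes and 1.36 (1.04 to 1.78) when scaled to promoter fragments. It was 1.22 (0.94 to 1.58) over all barcodes of at least 3000 fragments and 1.33 (0.90 to 2.01) in cells of at least 10000, and these last intervals both included 1. For Igf2r the ratio was 0.94 (0.78 to 1.13) over all barcodes of at least 3000 fragments, 1.28 (1.08 to 1.51) over all barcodes and 1.45 (1.10 to 1.91) in cells of at least 10000, so its side of 1 depended on the barcodes used.

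Binding protein and ligand starts carried far fewer fragments. Igfbp4 had 33 and 26, with a ratio of 1.14 (0.65 to 1.97), and Igfbp7 had 30 and 22, with a ratio of 1.06 (0.58 to 1.90). Igfbp5 had 15 and 5, with a ratio of 0.48 (0.14 to 1.40). The more accessible Igfbp2 start had 14 and 7 fragments. Of the 4 Igf2 starts, the one at position 142658804 of chromosome 7 had the most, 23 and 16, a ratio of 1.01 (0.50 to 1.99). The farthest upstream one, at 142666816, had 4 in the control library and 0 in the Ikzf1/4 library, where a count of 0 allows up to 0.313 CPM by the limit of 3 counts and 0.385 CPM by the exact interval. Igf1, Igfbp3 and Igfbp6 had between 1 and 6 fragments per library, all at or below 0.44 CPM, the median over all promoters of the mean of both libraries. With so few fragments a change at these starts was not detectable. The starts used for Igf1 (87861111), Igfbp3 (7213923) and Igfbp4 (99041244) lie inside their gene spans. Their windows do not cover the upstream ends of those spans, at 87858265, 7215498 and 99040005. At Igf1 the highest 500 bp bin, 87858765-87859264, lay nearer that end and held 32 and 21 fragments. Of the 14 member starts 8 had at least 20 fragments in all, and of these the interval for Igf1r alone lay above 1 and none lay below. Over the 14570 promoters with as many fragments, 23.1% lay above 1 and 6.64% below, with a median ratio of 1.08.

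**Figure D3:**
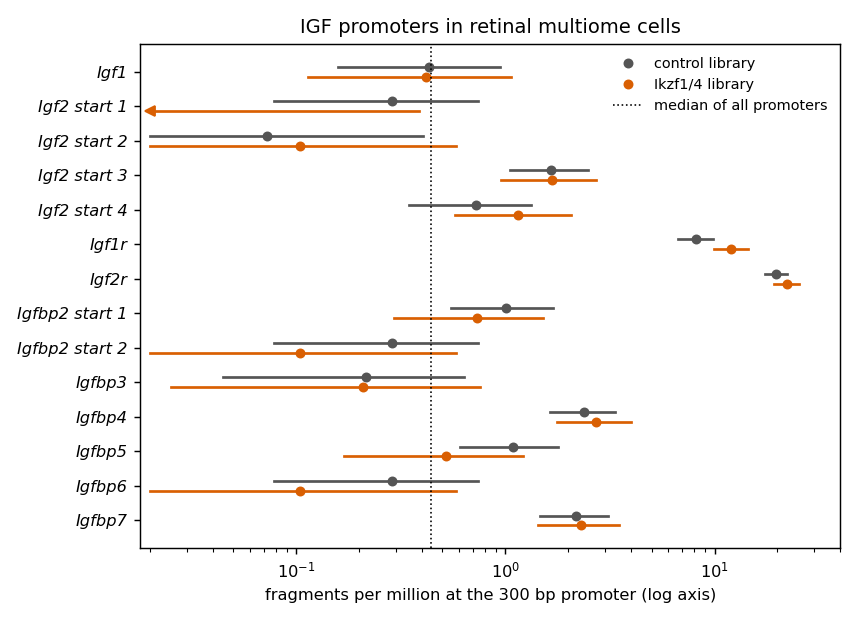
Fragment CPM (x axis, log) in the 300 bp promoter windows of the 14 member starts (y axis) in the control (grey) and Ikzf1/4 (orange) retinal libraries, with exact 95% counting intervals; starts of a gene are numbered from the most upstream, the arrow marks a count of 0 and the dotted line is the median of all promoters. Igf2r and Igf1r lie to the right of all other starts.

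The shape of the signal differed between genes. Cuts around the Igf2r start peaked in the 100 bp just before it, at 16.2 cut sites in the control and 17.6 with Ikzf1/4, both scaled as CPM. At Igf1r the highest 100 bp bin began 500 bp before the annotated start, with 24.3 and 31.0 cut sites, scaled likewise. The printed Igf1r window thus lies beside the summit, and a window of 1 kb centred on the start gave 460 and 424 fragments and a ratio of 1.33 (1.17 to 1.53). At Igfbp7 the highest bin began 200 bp after the start (6.14 and 4.60), and at Igfbp4 it began 1300 bp before it (4.84 and 3.87). For Igfbp4 that bin lies at the upstream end of the gene span (99040005), and the start used here is inside the span. The 500 bp bin 99039505-99040004 held 75 and 41 fragments, a ratio of 0.79 (0.53 to 1.17). Both libraries had their highest bin at the same place at each of these 4 genes.

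**Figure D4:**
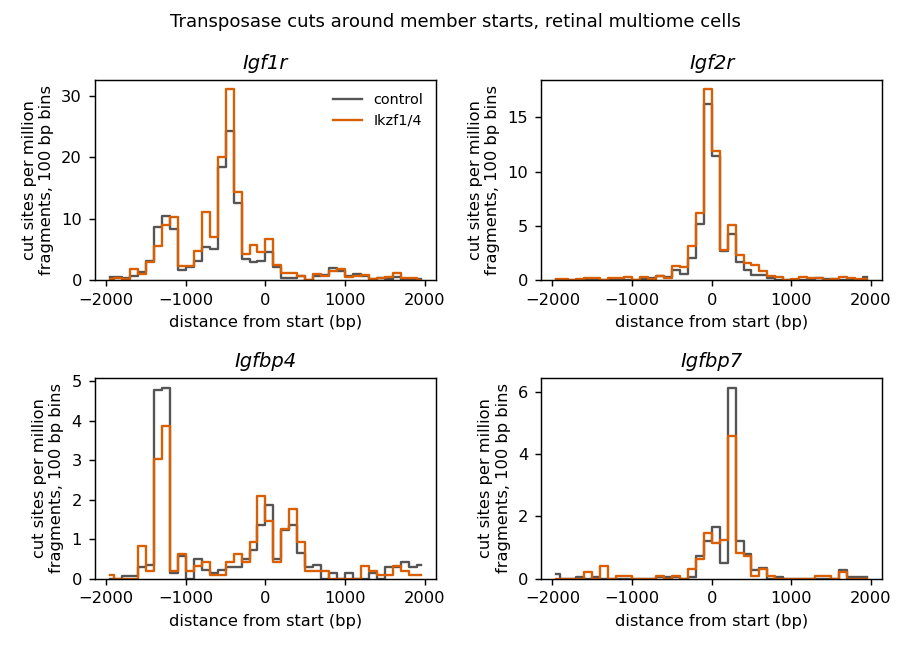
Transposase cut sites, scaled as CPM to the fragments in cells (y axis), in 100 bp bins against distance from the annotated start in bp (x axis, upstream to the left) for Igf1r, Igf2r, Igfbp4 and Igfbp7 in the control (grey) and Ikzf1/4 (orange) libraries. The summit lies at the start for Igf2r, upstream of it for Igf1r and Igfbp4, and downstream of it for Igfbp7. For Igfbp4 the summit is at the upstream end of the gene span, and the start used is inside the span.

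Over whole genes with 2 kb on both sides, 3 of the 10 members had a ratio whose counting interval excluded 1, Igf1r and Igf2r above and Igf1 below. Over all 18483 gene windows with at least 20 fragments, 38.8% excluded 1, 25.9% above and 12.9% below, and the median ratio was 1.04. Igf1r had 4278 and 3520 fragments, or 309 and 368 CPM, a ratio of 1.19 (1.14 to 1.25). Igf2r had 1029 and 850, or 74.3 and 88.8 CPM, a ratio of 1.20 (1.09 to 1.31). Both receptor ratios stayed above 1, interval included, over all barcodes (1.28 and 1.13) and in cells of at least 10000 fragments (1.24 and 1.18). They lay inside the range from 0.63 to 1.40 that held the middle 90% of all gene windows.

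Igf1 had 315 and 136 fragments, or 22.7 CPM (20.3 to 25.4) and 14.2 CPM (11.9 to 16.8), a ratio of 0.62 (0.51 to 0.77) that lay above that of 4.68% of gene windows. Over all barcodes it was 0.97 (0.89 to 1.05), and in cells of at least 10000 fragments it was 0.55 (0.42 to 0.73). Windows of microglial genes were lower in the Ikzf1/4 library too. P2ry12, a purine receptor, had a ratio of 0.52 (0.42 to 0.65) in cells and 0.88 (0.80 to 0.98) over all barcodes. Cx3cr1, the fractalkine receptor, had 0.73 (0.55 to 0.97) and 0.87 (0.76 to 1.01). Muller glial genes were also lower in the Ikzf1/4 library, at 0.83 (0.72 to 0.94) for Rlbp1, 0.79 (0.72 to 0.86) for Glul and 0.74 (0.67 to 0.82) for Slc1a3. Endothelial Pecam1 and Cdh5 had 0.86 (0.73 to 1.01) and 0.76 (0.60 to 0.96). Rod genes were higher, at 2.72 (2.28 to 3.25) for Nrl and 1.74 (1.52 to 1.99) for Nr2e3. The Nrl window held 194 and 364 fragments, so fragments at this rod gene were found in both libraries, although the control is labelled as Muller glia. Over all barcodes these ratios were closer to 1 or turned: 0.95 (0.86 to 1.05) for Rlbp1, 0.92 (0.85 to 0.99) for Glul, 0.86 (0.81 to 0.92) for Slc1a3, 1.97 (1.74 to 2.24) for Nrl and 1.39 (1.26 to 1.53) for Nr2e3. The endothelial ratios then lay above 1, at 1.08 (0.996 to 1.17) for Pecam1 and 1.10 (0.99 to 1.21) for Cdh5, with intervals that included 1. The libraries thus differed in marker windows of several cell types, and the part of this in the member ratios was not tested.

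The other 7 members had intervals that included 1. Igfbp2 was at 1.20 (0.94 to 1.52), Igfbp7 at 1.10 (0.96 to 1.26), Igfbp5 at 1.01 (0.86 to 1.20) and Igf2 at 0.98 (0.78 to 1.22). Igfbp4 was at 0.90 (0.74 to 1.09), Igfbp6 at 0.80 (0.60 to 1.06) and Igfbp3 at 0.68 (0.45 to 1.01). Igfbp6 was at 0.56 (0.39 to 0.80) in cells of at least 10000 fragments and at 1.07 (0.90 to 1.28) over all barcodes. Per kb of window, control accessibility was highest for Igfbp5, at 1.21 CPM per kb, followed by Igfbp4 at 1.17, Igfbp6 at 1.09 and Igf1r at 1.08. The Igfbp6 window also covers an open site in the next gene, Soat2, so its place here is not that of Igfbp6 alone. Control accessibility was lowest for Igf1, at 0.27 CPM per kb, against a median of 0.84 over all gene windows.

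**Figure D5:**
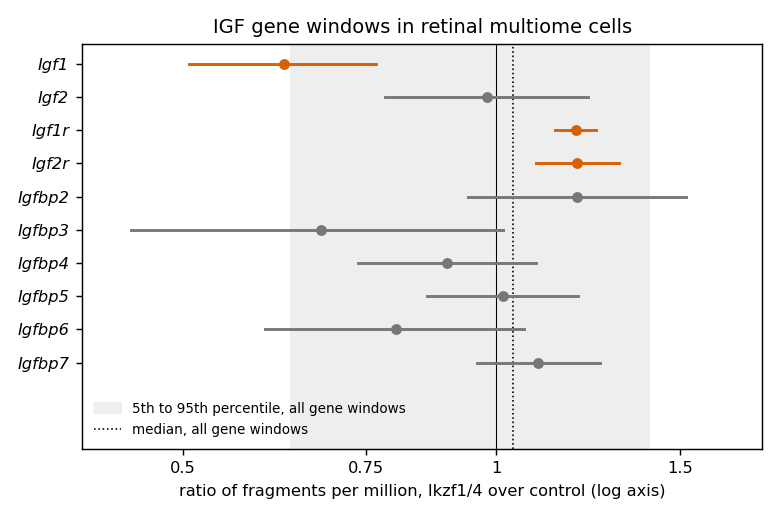
Ratio of fragment CPM in the Ikzf1/4 library over the control library (x axis, log) for the gene windows of the 10 members (y axis), with exact 95% counting intervals. Orange marks intervals that exclude 1 (Igf1, Igf1r and Igf2r); the band holds the middle 90% of all gene windows and the dotted line is their median.

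Single open sites within or near the genes were read in 500 bp bins over each gene and 20 kb on both sides, and the 4 highest bins of each member were taken. Of these 40 bins, the interval lay above 1 for 7 and below 1 for 2. The share over all such bins was not computed. Among promoter windows, which are smaller, it was 23.1% above and 6.64% below. At Igf1r the bin just before the start held 416 and 387 fragments, a ratio of 1.35 (1.17 to 1.55), and the bin before that held 334 and 316, a ratio of 1.37 (1.17 to 1.6). Another open site lay inside the gene. Its bin centred 176.75 kb after the start held 386 and 294 fragments, a ratio of 1.10 (0.94 to 1.29), and the next bin held 316 and 309, a ratio of 1.42 (1.21 to 1.66). Within Igf2r the highest bin away from the start lay at the start of Airn, 28.55 kb into the gene, with 85 and 75 fragments and a ratio of 1.28 (0.92 to 1.76). The highest Igf2r bin, at the start, held 303 and 241 fragments, a ratio of 1.15 (0.97 to 1.37). Of the bins beside it, the one 0.45 kb before the start held 48 and 51 fragments, a ratio of 1.54 (1.02 to 2.33). The bin 0.55 kb into the gene held 39 and 45, a ratio of 1.67 (1.06 to 2.63). Near Igf2 the bin 142646768-142647267 held 69 and 20 fragments, a ratio of 0.42 (0.24 to 0.70). It lay past the downstream end of the gene, 11.8 kb from the start at 142658804. A bin 6.75 kb from the Igfbp6 start held 34 and 11, a ratio of 0.47 (0.21 to 0.95), but it lay inside the next gene, Soat2, which begins 902 bp past the end of Igfbp6. It supplied 34 of the 141 and 11 of the 78 fragments in the Igfbp6 gene window, so that window does not describe Igfbp6 alone. The highest bin inside Igfbp5, 3.55 kb from its start, held 90 and 51, a ratio of 0.82 (0.57 to 1.17), and the same site was the highest in the region searched for Igfbp2. The highest bins around Igfbp4 and Igfbp6 were at the starts of their neighbours Top2a (449 and 275 fragments) and Spryd3 (429 and 368, a ratio of 1.24, 1.08 to 1.43, with 1.5, 1.17 to 1.93, in the next bin), so they do not describe the members. The intervals of all bins not given here included 1.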

How the data were processed

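The members, gene lists and comparisons were chosen with earlier results of these data known. Poly(A) RNA of 6 fibroblast libraries was quantified per Ensembl transcript with salmon, per the labels, and the authors deposited estimated counts and TPM; only the sums of the estimated counts were used, as depth. Gene results are those of the authors' deposited comparison, made with DESeq2 per the labels. The authors' mean normalised signal per gene (counts after size factor scaling), log2 fold change with its standard error, its Wald score and its p-values, raw and adjusted, were used as deposited. No source used here says if the deposited log2 values are shrunken: the median standard error was 0.049 at means under 2 and 0.199 at means of 2 to 100, so they may be. A gene was called at an adjusted p under 0.05, and genes without an adjusted p were left out of counts of calls. Of the gene IDs, 99.2% matched the gene name table.

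The gene-count tests planned with edgeR and the planned tests of fibroblast ATAC peaks were not used, since the sources used here pair no transcript with a gene and give no gene coordinates of the build of the peak lists. The submitters' processing notes name mm9 and mm10 without a role. Of these builds, only mm9 can be that of the peak lists, which run past the end of mm10. Of the deposited peak lists only the number of peaks and their end coordinates were read, the latter as a check of the build.

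Per the file headers, multiome fragments were made by cellranger-arc 2.0.1 on mm10, and the authors deposited each unique fragment with its barcode and counts of read pairs; here each fragment counted once. Mean read pairs per fragment were 1.96 (control) and 4.59 (Ikzf1/4). A barcode was kept as a cell with at least 3000 fragments, a start-site enrichment of at least 4 (the 50 bp on both sides of starts against flanks 1900 to 2000 bp away) and no more fragments than the 99th percentile. Of 1964 and 762 barcodes with at least 3000 fragments, 1891 and 700 were kept. No doublet caller was run beyond that upper limit. Barcodes of at least 3000 fragments not kept held 7.98% and 18.2% of all fragments. Promoter windows and their sequences came from RefSeq (GRCm38.p6), and promoters of 1 autosome were not used here; promoters and gene windows entered counts with at least 20 fragments in both libraries together. Intervals are exact Poisson for a level and exact Clopper-Pearson for a ratio, at 95%. The interval script was tested on simulated data. All 10 members are named, and of the pathway list the called genes; other genes of the list were named outside this rule, after their values were seen. That list was longer as first written, and the genes taken out of it are not reported here. Python 3.11.15, numpy 2.4.6, pandas 2.3.3 and scipy 1.17.1 were used.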

Additional observations from a re-analysis of the deposited data

How the results depend on the processing

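Of the 10 members, 1 was called in the authors' deposited table. That count was also 1 at an adjusted p under 0.01 (22.5% of all genes tested) and with Benjamini-Hochberg adjustment over all 24712 genes with a p (19.3%), the latter chosen after seeing the data. It was 0 with an absolute log2 fold change over 1 required (2.15%), and 0 with Bonferroni adjustment of the DESeq2 p-values over all genes with a p (7.01%); 3 members had an unadjusted p under 0.05 in that table, as had 38.4% of all genes tested. Gene windows whose interval excluded 1 numbered 3 of 10, against 38.8% of all gene windows. They numbered 5 over all barcodes (Igf2, Igf1r, Igf2r and Igfbp5 above, Igfbp3 below), against 54.9% of the same windows. Of those windows 40.9% lay above and 13.9% below, with a median ratio of 1.07. The member windows also numbered 5 when scaled to promoter fragments (with Igf1, Igfbp3 and Igfbp6 below), against 35.4%, with 12.4% above and 23% below. They numbered 4 in cells of at least 10000 fragments, against 30.5%, and 4 when scaled to fragments in gene windows, against 35.5%; the cause was not tested. These multiome settings, like the multiome comparison itself, were chosen after seeing which references could be used. Igf1 is the member whose interval excluded 1 in cells but included it over all barcodes. Of 40 alternative gene window ratios 33 stayed inside the main counting interval, and of 40 promoter ratios 39 did. At starts with few fragments these intervals are wide, so staying inside them says little. The Igfbp2 promoter ratio at 72824480, for example, went from 0.72 to 0.33 in cells of at least 10000 fragments. No member ratio whose counting interval excluded 1 in the main setting moved to the other side of 1. The Igf2 gene window, whose main interval included 1, went from 0.98 to 1.22 (1.08 to 1.36) over all barcodes. The RNA settings reuse the same log2 fold change, so its direction could not change. No paired analysis was possible because the sources used here give no gene counts per library. For the same reason the DESeq2, RLE, filter, voom and left-out library fits were not run, and the peak threshold, overlap, window, depth and left-out library settings for fibroblast ATAC peaks were not run because gene coordinates of their build were not at hand. Low counts limit the starts of Igf1, Igfbp3 and Igfbp6, each with fewer than 20 fragments in both libraries together. For Igf1 and Igfbp3 these are counts in windows that miss the upstream end of the gene span. The Igf2 starts at 142661271 and 142666816 and the Igfbp2 start at 72825387 also had fewer than 20.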
